A study of Mus musculus with 2 samples.

Results

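Splicing regulators decide which exons of a transcript are kept, and 10 of them that act in heart muscle are described here in the poly(A) RNA of a mouse heart: Rbm20, Rbm24, Rbfox1, Rbfox2, Mbnl1, Mbnl2, Celf1, Celf2, Ptbp1 and Srsf1. Each was found by its symbol through its Ensembl gene identifier with the version removed, and all 10 were present among the 43346 Ensembl genes of the series. The heart came from 1 female adult C57BL/6J mouse aged 10 weeks, and no treatment or mutant is named in the labels. Total RNA, extracted with a kit meant for fatty tissue, went into 2 libraries, labelled technical replicates 2 and 1 of a single biological replicate. Replicate 2 was added later and, per the labels, lay outside the publication that used replicate 1. With 1 animal and no second condition, every spread given here is technical and says nothing of differences between mice.

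RNA-binding proteins of this kind bind short motifs in or beside an exon and help or block its recognition by the spliceosome. RBM20 represses many exons of titin, RBM24 helps the inclusion of muscle exons, and the RBFOX, MBNL and CELF families act on large sets of exons whose use changes as the heart matures. MBNL proteins favour adult patterns and CELF proteins fetal ones. PTBP1 is a repressor that binds pyrimidine-rich RNA and falls as muscle differentiates, and SRSF1 is an SR protein that binds exonic enhancers.

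The libraries differed in depth and in make-up, and these differences touch each level below. Replicate 2 held 19685821 expected counts and replicate 1 held 22775991, of which 12654724 in replicate 2 and 5028154 in replicate 1 fell outside the 37 mitochondrial genes and 11 nuclear copies of them. The share of TPM held by these genes and copies was 60.9% in replicate 2 and 92.8% in replicate 1. TPM, an abundance corrected for transcript length and scaled to a fixed sum, was therefore rescaled without them, and nuclear TPM denotes that scale. Over 13155 genes with a known GC content, the log2 ratio of replicate 2 over replicate 1 followed that content closely (Pearson r = 0.85, Spearman rho = 0.90, across genes of the same pair of libraries, which are not independent replicates). Of the marker lists, cardiomyocyte genes summed to 90718 nuclear TPM in replicate 2 and 15063 in replicate 1, and 8 of 9 were called higher. Endothelial genes summed to 808 nuclear TPM in replicate 2 and 370 in replicate 1, with 5 of 7 called higher and 1 called lower. For the 7 fibroblast genes the sums were 1128 nuclear TPM in replicate 2 and 2697 in replicate 1, with 2 called higher and 2 called lower. Mural genes summed to 791 nuclear TPM in replicate 2 and 1453 in replicate 1, with 5 of 6 called higher and 1 called lower. The 7 macrophage genes summed to 497 nuclear TPM in replicate 2 and 179 in replicate 1, with 5 called higher. Neuron genes summed to 4.12 nuclear TPM in replicate 2 and 12.2 in replicate 1, and Rbfox3, a defining neuronal gene, had no count in either library. These calls stand beside 38.4% of all tested genes called higher and 27.2% lower in replicate 2, by the test given below. With the GC trend removed as described below, 4 cardiomyocyte, 2 endothelial, 1 fibroblast, 3 mural and 4 macrophage genes were called higher. On that scale 3 fibroblast genes and no other marker were called lower, beside 10.2% of all genes called higher and 10.9% lower. The part of these shifts in the results below was not tested.

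All 10 regulators were transcribed at moderate to high levels in both libraries. In nuclear TPM they lay between 25.3 and 146 in replicate 2, a 5.76-fold span, and between 15.2 and 744 in replicate 1, a 48.9-fold span. Their lowest percentile among nuclear genes with a count was 73.4 in replicate 2 (Rbfox1) and 61.7 in replicate 1 (Ptbp1). Srsf1 was the highest of the 10 in each library. In a bulk sample, fewer cells of a type and less RNA per cell cannot be told apart, so these are levels of the whole tissue.

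**Figure D1:**
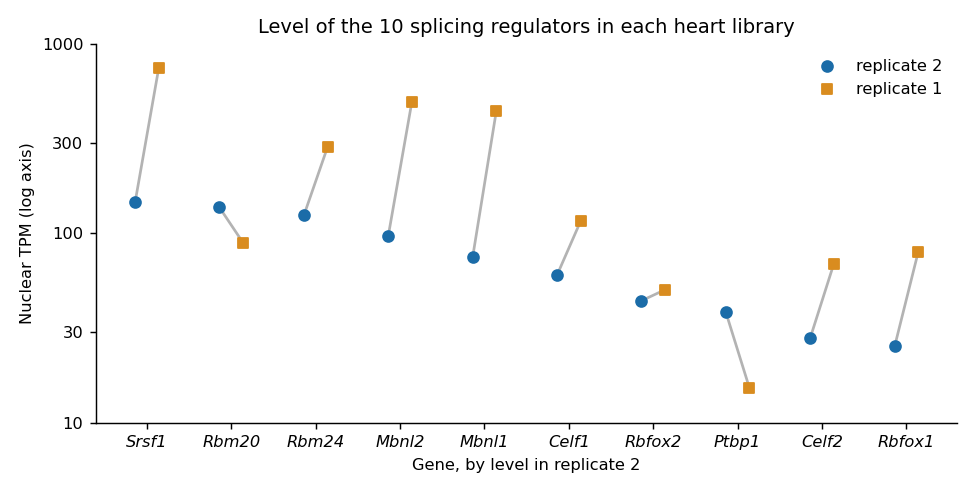
Nuclear TPM on a log axis for each of the 10 regulators, with replicate 2 as circles and replicate 1 as squares joined by a line, 1 library each and no error bars. Srsf1 is highest in both libraries, with 146 in replicate 2 and 744 in replicate 1, while Rbm20 and Ptbp1 are the genes that lie higher in replicate 2.

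RBM20 and RBM24, the regulators most closely tied to striated muscle, came next after Srsf1 in replicate 2, but in replicate 1 only Rbm24 was in the upper part and Rbm20 lay below Celf1. Rbm20 (ENSMUSG00000043639, chromosome 19, 53677306 to 53867080, plus strand), whose loss in mouse alters titin, had 137 nuclear TPM in replicate 2 from 5210 counts and 89.2 in replicate 1 from 898 counts. Rbm24 (ENSMUSG00000038132, chromosome 13, 46418434 to 46431095, plus strand), an activator of muscle exons, had 124 nuclear TPM in replicate 2 from 2847 counts and 285 in replicate 1 from 2021 counts. Rbm20 thus lay higher in replicate 2 and Rbm24 lay higher in replicate 1. Rbm38, the closest relative of Rbm24, had 196 nuclear TPM in replicate 2 and 1.80 in replicate 1, where it rested on 8 counts.

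The RBFOX genes, whose proteins bind UGCAUG, lay in the lower part of the set. Rbfox1 (ENSMUSG00000008658, chromosome 16, 5885355 to 7411526, plus strand) had 25.3 nuclear TPM in replicate 2 from 738 counts and 80.1 in replicate 1 from 730 counts. Rbfox2 (ENSMUSG00000033565, chromosome 15, 77078990 to 77307004, minus strand) had 44.1 nuclear TPM in replicate 2 from 2134 counts and 50.4 in replicate 1 from 752 counts. Rbfox2 was the steadiest of the 10, and the order of the pair depended on the library: Rbfox2 was above Rbfox1 in replicate 2 and below it in replicate 1. The third family gene, Rbfox3, known as a marker of neurons, was at 0 counts in both libraries, which allows at most 3 counts in each, counting error only.

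Both Muscleblind genes with a role in adult muscle were abundant. Mbnl2 (ENSMUSG00000022139, chromosome 14, 120275669 to 120431697, plus strand) had 97.1 nuclear TPM in replicate 2 from 3165 counts and 496 in replicate 1 from 5003 counts. Mbnl1 (ENSMUSG00000027763, chromosome 3, 60472830 to 60629750, plus strand), the family member sequestered by repeat RNA in myotonic dystrophy, had 74.99 nuclear TPM in replicate 2 from 2449 counts and 442 in replicate 1 from 4255 counts. Both Muscleblind genes lay higher in replicate 1, and Mbnl2 was the higher in each library. Mbnl3 had 3 counts in replicate 2 and 5 in replicate 1.

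Of the CELF genes, Celf1 (ENSMUSG00000005506, chromosome 2, 90940382 to 91019497, plus strand) had 60.3 nuclear TPM in replicate 2 from 1950 counts and 116 in replicate 1 from 1259 counts. Celf2 (ENSMUSG00000002107, chromosome 2, 6539694 to 7509563, minus strand) had 28.1 nuclear TPM in replicate 2 from 1004 counts and 69.3 in replicate 1 from 1092 counts. Celf1 was therefore above Celf2 in each library. The other 4 family genes, Celf3, Celf4, Celf5 and Celf6, had at most 12 counts in either library.

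Srsf1 and Ptbp1, which act in most tissues, stood at opposite ends in replicate 1 and by their mean, while in replicate 2 Ptbp1 lay above Celf2 and Rbfox1. Srsf1 (ENSMUSG00000018379, chromosome 11, 88047373 to 88053755, plus strand) had 146 nuclear TPM in replicate 2 from 2116 counts and 744 in replicate 1 from 3680 counts. Ptbp1 (ENSMUSG00000006498, chromosome 10, 79854427 to 79864771, plus strand) had 38.3 nuclear TPM in replicate 2 from 655 counts and 15.2 in replicate 1 from 67 counts. Its paralogs Ptbp2 and Ptbp3, of which Ptbp2 is best known in neurons, had 15.4 and 12.5 nuclear TPM in replicate 2 and 80.2 and 70.9 in replicate 1. Ptbp1 thus exceeded both paralogs in replicate 2 and was below both in replicate 1.

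Ordered by the mean log2 level over the libraries, the sequence was Srsf1, Mbnl2, Rbm24, Mbnl1, Rbm20, Celf1, Rbfox2, Rbfox1, Celf2 and Ptbp1. Mean log2 nuclear TPM was 8.36 ± 1.66 for Srsf1 at the top, 7.78 ± 1.66 for Mbnl2 and 4.60 ± 0.94 for Ptbp1 at the bottom (SD, n = 2 technical libraries). Rbfox2 had the smallest SD, 5.56 ± 0.14, and Mbnl1 the largest, 7.51 ± 1.81. Among the 9 neighbouring pairs only Celf1 and Rbfox2 differed by more than the larger SD of the pair over the libraries (a log2 difference of 0.83 against an SD of 0.67). The levels in the 2 libraries ranked the 10 genes with a Spearman rho of 0.73 (n = 10 genes of the same pair of libraries, a description). With replicate 1 brought to the GC profile of replicate 2, that rho was 0.90 and the span in replicate 1 was 15.4-fold. This adjustment is taken from the ratios of these same libraries, so closer agreement is in part built in.

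Counts of the same heart differed between the libraries for most of the 10 regulators. By an exact binomial test (edgeR, Benjamini-Hochberg over 13182 genes, called at an adjusted p under 0.05 and at least 2-fold), which compares these libraries and covers counting error only, Rbm20 and Ptbp1 were called higher in replicate 2. The background was high, since 38.4% of the genes tested were called higher and 27.2% lower in replicate 2. Srsf1, Mbnl1, Mbnl2, Celf2 and Rbfox1 were the 5 called lower. Against that background, 7 of 10 called members is not a result about the members. Rbm24, with a log2 ratio of -0.98, and Celf1, with -0.84, stayed under the 2-fold limit, and Rbfox2 had a log2 ratio of 0.03 (adjusted p = 0.61, edgeR exact binomial test). The median log2 ratio was -1.22 over the members and 0.21 over all genes tested, a shift against which these ratios are to be read.

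Along GC content, the members took the same course as the other genes. Mbnl1, with the lowest GC content of the 10 (39.0%), had a log2 ratio of -2.27, and Ptbp1, with the highest (54.4%), had 1.81. The correlation of ratio and GC content over the 10 was r = 0.94 and rho = 0.95 (across genes of the same libraries, a description). Once the median trend in 50 bins of GC content was removed, the log2 ratios of the members lay between -1.41 and 0.03, and their median was -0.35 against 0.00 for all genes. Rbm24 was then the only member called, lower in replicate 2 with a log2 ratio of -1.41 (adjusted p = 2.4e-223, edgeR exact binomial test), and no member was called higher. For comparison, 10.2% of all genes tested were called higher and 10.9% lower on that scale. Rbm20 turned to -0.56 and Ptbp1 to -0.36, both below 0 once the trend was removed. GC content was read from release M21 sequences, also where the deposited transcript has another length. That is so for Rbm20-203 and for the leading transcripts of Rbm24, Rbfox1, Rbfox2 and Mbnl2. Rbfox2-202, for example, is 6564 nt long as deposited and 3072 nt in release M21. How far this moves the ratios of these 5 genes was not tested.

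**Figure D2:**
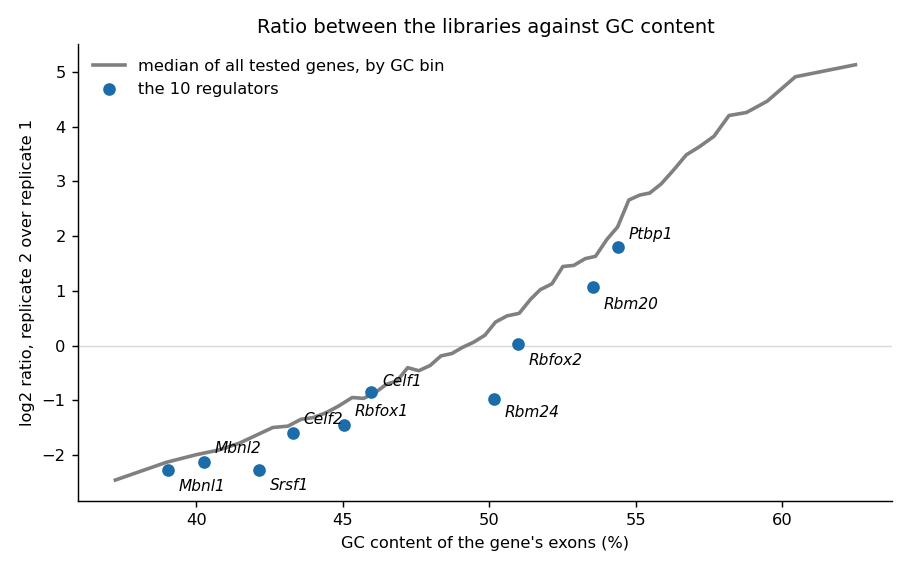
Log2 ratio of replicate 2 over replicate 1 (TMM scale) against the GC content of the exons in percent, with the 10 regulators as named points and the median of all tested genes in bins of GC content as a line. The regulators rise with GC content from -2.27 for Mbnl1 to 1.81 for Ptbp1, and Rbm24, at 50.2% GC, lies farthest below the line.

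Ratios within a library compare regulators that act together or against each other, and TPM allows this because it is per length. Mbnl2 exceeded Mbnl1 1.29-fold in replicate 2 (95% exact binomial interval of the count ratio per length 1.23 to 1.37) and 1.12-fold in replicate 1 (1.08 to 1.17). Celf2 was 0.468 of Celf1 in replicate 2 (interval 0.431 to 0.503) and 0.601 in replicate 1 (0.549 to 0.647). These paralog ratios kept their sign, with log2 means of 0.27 ± 0.15 and -0.91 ± 0.25 (SD, n = 2 technical libraries), though the intervals of the libraries did not overlap. With replicate 1 at the GC profile of replicate 2, its log2 ratios were 0.30 for Mbnl2 over Mbnl1 and -1.30 for Celf2 over Celf1. In replicate 2 they were 0.37 and -1.09.

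The other ratios moved more. Rbfox2 over Rbfox1 had a log2 ratio of 0.79 in replicate 2 and -0.65 in replicate 1, and Rbm24 over Rbm20 had -0.14 in replicate 2 and 1.66 in replicate 1, so neither pair kept its order. Mbnl1 over Celf1, which in many tissues act against each other on the same exons, was 1.24-fold in replicate 2 and 3.77-fold in replicate 1. Srsf1 over Ptbp1 was 3.78-fold in replicate 2 and 44.9-fold in replicate 1. With replicate 1 at the GC profile of replicate 2, the log2 ratios in replicate 1 were 1.00 for Rbfox2 over Rbfox1, 0.47 for Rbm24 over Rbm20, 0.65 for Mbnl1 over Celf1 and 1.78 for Srsf1 over Ptbp1. On that scale 5 of the 6 pairs had the same sign in both libraries, and Rbm24 over Rbm20 was the exception. Because the adjustment is taken from the same libraries, nearness to replicate 2 is in part built in.

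**Figure D3:**
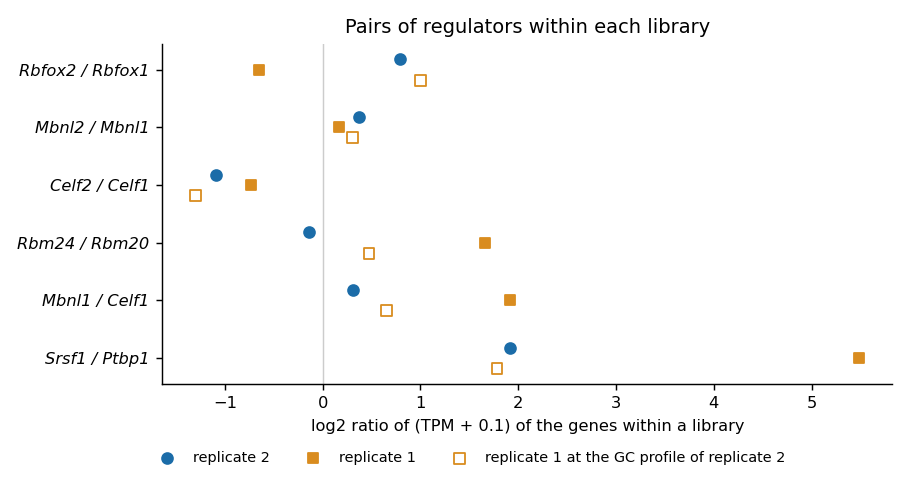
Log2 ratio of TPM + 0.1 for 6 pairs of regulators within a library, with replicate 2 as circles, replicate 1 as filled squares and replicate 1 at the GC profile of replicate 2 as open squares. The open squares lie nearer to the circles than the filled squares do for all 6 pairs, which the adjustment in part builds in.

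At the transcript level, the leading transcript was shared by both libraries for 7 of the 10 regulators, Rbm24 among them with only 1 annotated transcript. Rbfox1-201 carried 98.6% of its gene's abundance in replicate 2 and 100% in replicate 1, and Mbnl2-202 carried 96.0% in replicate 2 and 100% in replicate 1. Rbfox2-202 had 72.2% in replicate 2 and 100% in replicate 1, with Rbfox2-203 at 22.9% in replicate 2 and 0% in replicate 1. The posterior estimates, which average over assignments of shared reads, put Rbfox2-202 at 71.0% in replicate 2 and 54.5% in replicate 1, where its count had a posterior SD of 217. Celf2-202 led with 42.9% in replicate 2 and 53.1% in replicate 1, followed by Celf2-206 with 11.7% in replicate 2 and 27.9% in replicate 1. Exon structures of deposited transcripts could be used only where their length equals that in GENCODE release M21. This leaves out the leading transcripts of Rbm20 in replicate 2, Rbm24, Rbfox1, Rbfox2 and Mbnl2.

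Celf1, Rbm20 and Ptbp1 changed their leading transcript. Celf1-205 led in replicate 2 with 53.7% and had 0% in replicate 1, where Celf1-204 led with 84.7% and had 9.66% in replicate 2. These transcripts differ at alternative acceptor sites of 2 exons. The longer, 76-nt form of the exon ending at 91006695, which adds 12 nt, was held by transcripts with 89.2% of the abundance in replicate 2 and 13.9% in replicate 1. The longer, 114-nt form of the exon ending at 91009315, which adds 3 nt, had 20.7% in replicate 2 and 86.1% in replicate 1. In the posterior estimates the first form had 86.2% in replicate 2 and 41.5% in replicate 1, and the count of Celf1-204 in replicate 1 had a posterior SD of 240.

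For Rbm20, the protein-coding Rbm20-203 led in replicate 2 with 56.8%, against 0.90% in replicate 1. Rbm20-201, annotated as a target of nonsense-mediated decay, led in replicate 1 with 90.02%, against 30.3% in replicate 2. Its posterior SD was small beside its count in each library, 79.4 of 1403 counts in replicate 2 and 7.92 of 842 in replicate 1. Rbm20-201 has 7 exons and a GC content of 50.1%, below the 53.5% of the gene, a value that uses the release M21 sequence of Rbm20-203. The deposited Rbm20-203 is 6592 nt long and 4892 nt in release M21, so the exons of its deposited form could not be compared with those of Rbm20-201. By release M21 exons, 62.3% of the 4663 bases of Rbm20-201 lie in exons of protein-coding Rbm20 transcripts, and 1759 bases do not.

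Ptbp1 had 67 counts in replicate 1, and 62.8 of them were assigned to Ptbp1-213, a transcript with a retained intron that thus held 91.5% of the abundance, against 12.3% in replicate 2. Its posterior share was 10.9% in replicate 2 and 41.4% in replicate 1. In replicate 2 the protein-coding Ptbp1-206 led with 30.4%, against 2.97% in replicate 1. Of the 2108 bases of Ptbp1-213, 81.0% lie in exons of protein-coding Ptbp1 transcripts, and 401 bases do not.

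Transcripts annotated as decay targets or as intron-retaining made up a large share of Srsf1, a gene known to limit its own expression through such transcripts. They held 57.7% of Srsf1 abundance in replicate 2 and 54.6% in replicate 1, 30.3% of Rbm20 in replicate 2 and 90.1% in replicate 1, and 37.9% of Ptbp1 in replicate 2 and 97.3% in replicate 1. In the posterior estimates the Ptbp1 share was 43.2% in replicate 2 and 61.6% in replicate 1. Mbnl1 had 9.14% in replicate 2 and 5.80% in replicate 1, and Celf2 had 1.64% in replicate 2 and 0.20% in replicate 1. The other 5 members had none. Srsf1 was steady between the libraries, and the shares of Rbm20 and Ptbp1 were larger in replicate 1, by an amount that for Ptbp1 depended on the estimate.

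The leading Srsf1 transcript, the intron-retaining Srsf1-203, is 759 nt long and had 37.9% of the abundance in replicate 2 and 45.8% in replicate 1. By counts it held 238 of 2116 in replicate 2 and 457 of 3680 in replicate 1, and its lead rests on the length correction. All 759 of its bases lie in exons of protein-coding Srsf1 transcripts. Srsf1-201 followed with 24.8% in replicate 2 and 23.0% in replicate 1, and the decay target Srsf1-204 had 17.3% in replicate 2 and 8.46% in replicate 1. Among the 11 other SR and TRA2 genes tested, 7 have an annotated decay or intron-retaining transcript and enough counts, and their median share was 48.4% in replicate 2 and 51.4% in replicate 1. The median was 28.3% in replicate 2 and 13.6% in replicate 1 over 11 hnRNP genes, and 5.21% in replicate 2 and 4.17% in replicate 1 over 4027 protein-coding genes with such a transcript. The comparison of transcript classes was chosen after the values were seen.

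**Figure D4:**
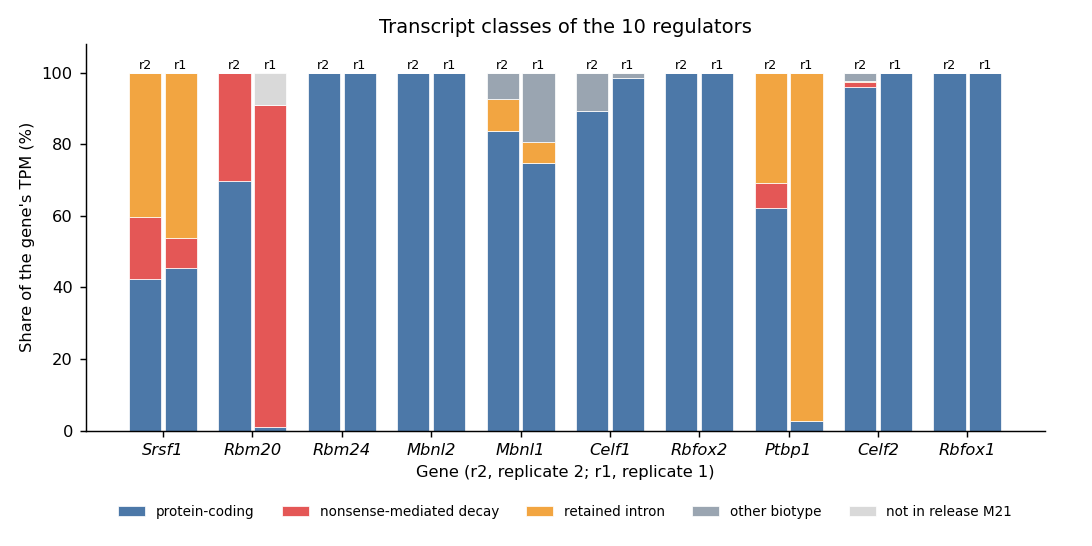
Share of each gene's TPM in percent by annotated transcript class, stacked to 100%, for replicate 2 (r2) and replicate 1 (r1) of each of the 10 regulators. Srsf1 holds decay and intron-retaining transcripts at 57.7% in replicate 2 and 54.6% in replicate 1, while those of Rbm20 and Ptbp1 are larger in replicate 1.

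Alternative exons of the regulators themselves could be followed in Mbnl1, Celf2 and Srsf1, and in replicate 2 alone in Celf1 and Ptbp1. Of 24 annotated cassette exons of at most 300 nt, 15 had at least 20 counts in both libraries, and 3 of these were between 10% and 90% included in both. Inclusion is the TPM of transcripts that hold the exon over that of transcripts that hold or skip it, and it rests on the deposited transcript estimates, not on counted junctions. The sequences of some coding exons with partial use are shown, with Mbnl2 counterparts of a pair of them, because they are segments by which the protein forms differ. Longer exons with partial use and a Mbnl1 form of 49 nt, which holds none of the motifs below, are not shown. They were read from GENCODE release M21 (GRCm38, which is mm10), and capitals mark TGCATG, the RBFOX motif as DNA, TCTT, a core of PTB sites, and TGCT or CGCT, cores of MBNL sites, all searched on the transcribed strand only.
Mbnl1 54-nt exon: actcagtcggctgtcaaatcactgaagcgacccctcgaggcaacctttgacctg
Mbnl2 54-nt exon: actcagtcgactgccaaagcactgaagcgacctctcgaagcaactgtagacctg
Mbnl1 36-nt exon: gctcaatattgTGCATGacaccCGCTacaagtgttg
Mbnl2 36-nt exon: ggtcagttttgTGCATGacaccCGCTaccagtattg
Mbnl1 95-nt exon: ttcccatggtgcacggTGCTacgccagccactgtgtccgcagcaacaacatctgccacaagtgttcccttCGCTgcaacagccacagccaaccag
Celf2 144-nt exon: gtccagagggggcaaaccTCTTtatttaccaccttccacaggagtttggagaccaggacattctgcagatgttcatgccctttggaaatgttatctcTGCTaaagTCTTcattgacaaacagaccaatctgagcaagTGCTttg
Ptbp1 78-nt exon: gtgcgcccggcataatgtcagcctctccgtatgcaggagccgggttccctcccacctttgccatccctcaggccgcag
Ptbp1 34-nt exon: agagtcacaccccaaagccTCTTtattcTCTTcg

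The Mbnl1 exon of 54 nt (chr3:60614683-60614736, plus strand), which encodes part of a nuclear localisation signal, was included at 53.4% in replicate 2 and 73.4% in replicate 1, which averages to 63.4% ± 14.1 (SD, n = 2 technical libraries). It is held by Mbnl1-214, which had 34.1% of the gene's abundance in replicate 2 and 50.8% in replicate 1, and by Mbnl1-218, which had 11.2% in replicate 2 and 18.3% in replicate 1. The transcripts that skip the exon include Mbnl1-202, a processed transcript without a coding annotation. It had 0% of the abundance in replicate 2 and 17.0% in replicate 1, so it lowers the inclusion in replicate 1 only. The Mbnl2 counterpart of the exon (chr14:120395712-120395765, plus strand) is identical at 46 of 54 bases. Neither copy holds any of the motifs searched, each of which was absent from most coding internal exons of 54 nt as well (TGCT or CGCT in 26.2%, TCTT in 16.4% and TGCATG in 0.565% of 1239).

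The Mbnl1 exon of 36 nt (chr3:60621423-60621458, plus strand), which has been linked to pairing of MBNL1 molecules, was included at 44.4% in replicate 2 and 6.25% in replicate 1. The transcripts behind this value carried 2279 counts in replicate 2 and 4074 in replicate 1. Posterior estimates gave 43.6% in replicate 2 and 6.79% in replicate 1. Mbnl1-201, which holds this exon and lacks the 54-nt exon, had 20.5% of the abundance in replicate 2 and 0.35% in replicate 1. The exon holds TGCATG 1 time and CGCT 1 time, as does its Mbnl2 counterpart (chr14:120403336-120403371, plus strand), and both copies are identical at 31 of 36 bases. Of 479 coding internal exons of 36 nt, 1.25% hold TGCATG and 17.5% hold TGCT or CGCT. A match in these letters is a description of the sequence and not evidence of binding.

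Other exons of Mbnl1 were steadier or rested on few transcripts. The 95-nt exon (chr3:60622146-60622240, plus strand), whose length is no multiple of 3, was included at 80.8% in replicate 2 and 80.1% in replicate 1. Here Mbnl1-202 counts as a transcript that holds the exon, so it raises the inclusion in replicate 1 only. The nearness of the 2 values rests in part on it. Exons of 171, 201 and 258 nt were included at 100% in replicate 2 and 82.0% in replicate 1, and the 154-nt exon at 100% in replicate 2 and 80.3% in replicate 1. The transcripts that skip them include Mbnl1-202, a processed transcript with 0% of the abundance in replicate 2 and 17.0% in replicate 1. A 49-nt form that shares its end with the 154-nt exon had 100% in replicate 2 from 224 counts and 24.1% in replicate 1 from 447 counts. The remaining Mbnl1 exons with enough counts, of 223, 111 and 63 nt, were at most 2.34% included in either library.

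The Celf2 exon of 144 nt (chr2:6549832-6549975, minus strand) was included at 86.2% in replicate 2 and 87.0% in replicate 1, a difference of -0.77 percentage points. It holds TCTT 2 times and TGCT 2 times, and of 1237 coding internal exons of 144 nt, 43.7% hold TCTT and 66.4% hold TGCT or CGCT. The Celf2 exon of 41 nt was included at 1.52% in replicate 2 and 0% in replicate 1, and that of 197 nt at 100% in both. In Srsf1, the exon of 187 nt was included at 2.67% in replicate 2 from 140 counts and 0.873% in replicate 1 from 106 counts. This value sets Srsf1-202, with 5.42 counts in replicate 2 and 1.37 in replicate 1, against the decay target Srsf1-204. The protein-coding Srsf1-201 and Srsf1-205 were counted as neither holding nor skipping the exon. They had 754 and 971 counts in replicate 2, and 1108 and 2006 in replicate 1. The value therefore says nothing of this segment in Srsf1-201 and Srsf1-205. In Celf1, the exon of 152 nt was included at 58.7% in replicate 2 from 670 of 1950 counts, and replicate 1 had no count on transcripts that hold or skip it. The leading Celf1-205 and Celf1-204 were counted as neither, so the value does not cover them.

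Ptbp1 exons are given for replicate 2 alone, since the transcripts that hold or skip them had 3.17 counts in replicate 1, and they were chosen after their values were seen. The in-frame 78-nt exon (chr10:79860117-79860194, plus strand), which codes for part of the linker between RNA-binding domains, was included at 47.4% from 564 counts. The 34-nt exon (chr10:79862014-79862047, plus strand), whose skipping shifts the frame and is known to be promoted by PTBP1 itself, was included at 89.9%. It holds TCTT 2 times, and 13.1% of 168 coding internal exons of 34 nt hold that motif at all. The 78-nt exon holds none of the motifs.

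**Figure D5:**
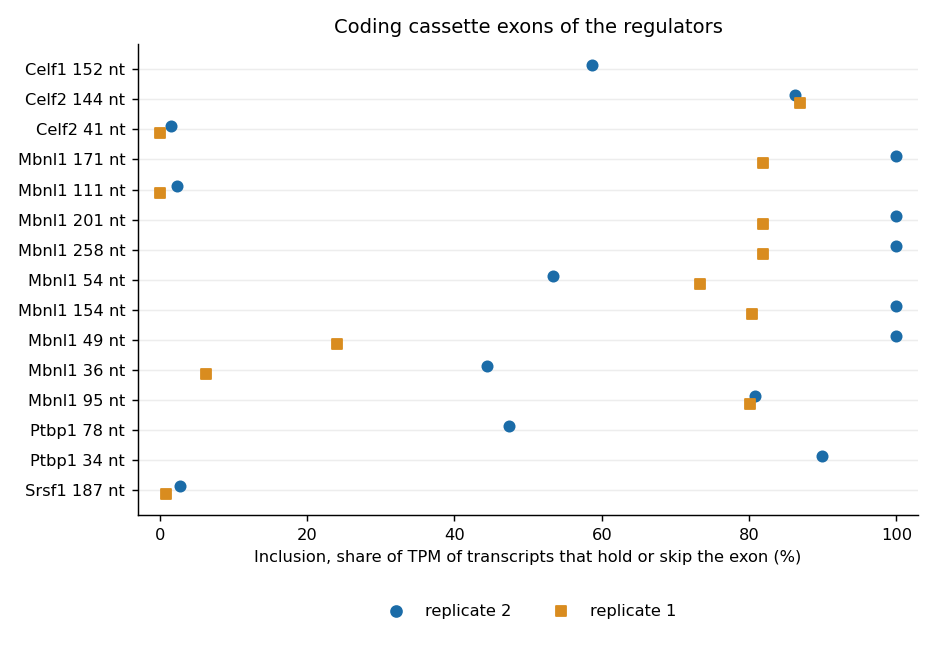
Inclusion in percent of coding cassette exons of the regulators, named by gene and length, with replicate 2 as circles and replicate 1 as squares, each shown where its library had at least 20 counts, without exons at 100% in each library shown. The Celf2 144-nt and Mbnl1 95-nt exons lie close between the libraries, the latter in part through Mbnl1-202, which has abundance in replicate 1 only. The Mbnl1 36-nt exon lies at 44.4% in replicate 2 and 6.25% in replicate 1. The Mbnl1 54-nt exon lies at 53.4% in replicate 2 and 73.4% in replicate 1.

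Of the other splicing genes listed, those known from many tissues lay mostly at or above 1 deposited TPM. Those typical of neurons or epithelia lay below it in at least 1 library. This limit equals 2.56 nuclear TPM in replicate 2 and 13.9 in replicate 1, so it is stricter in replicate 1. All 22 hnRNP genes reached it in both libraries, as did 10 of 12 SR and TRA2 genes. So did 16 of 18 other splicing factors and 4 of 7 SR protein kinases, but 0 of 8 neural or epithelial factors. Hnrnpa2b1 had 522 nuclear TPM in replicate 2 and 1147 in replicate 1, and Srsf5 had 304 in replicate 2 and 486 in replicate 1. By mean deposited TPM, Hnrnpa2b1 was followed by Hnrnpk and Hnrnph1, and Srsf5 by Srsf3, with 194 nuclear TPM in replicate 2 and 762 in replicate 1, and Srsf2, with 163 in replicate 2 and 531 in replicate 1. Qk, which encodes the splicing factor QKI, had 192 in replicate 2 and 1067 in replicate 1. Tardbp, which encodes TDP-43, had 178 in replicate 2 and 676 in replicate 1. Esrp1, an epithelial splicing factor, and Khdrbs2 had no count in either library. Of the neural or epithelial factors the highest was Srrm4, which directs neuronal microexons and had 10.3 nuclear TPM in replicate 2 and 5.26 in replicate 1.

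Calls in these lists went in both directions, beside 38.4% of all genes called higher and 27.2% called lower. On the TMM scale, 2 hnRNP genes were called higher in replicate 2 and 12 lower, of 22 tested, and 2 SR and TRA2 genes were called higher and 9 lower, of 11 tested. Among the other splicing factors 1 was called higher and 9 lower, of 17 tested. For the SR protein kinases 3 were called higher and 3 lower, of 7, and among the 4 paralogs tested 1 was called higher and 3 lower. Of the 3 neural or epithelial factors tested, 1 was called higher and 1 lower. Of the genes called higher in replicate 2, Rbm38 had a log2 ratio of 6.35, Srpk3, a kinase of striated muscle, had a log2 ratio of 3.54, Raly had 2.87, Rbm10 had 2.80, Clk3 had 2.00, Srsf4 had 1.91, Clk2 had 1.69, Nova2 had 1.58, Srsf9 had 1.18 and Hnrnpul1 had 1.10. Lowest of the genes called lower were Hnrnpu at -2.62, Srsf10 at -2.35, Ptbp3 at -2.31, Qk at -2.29, Syncrip at -2.17, Ptbp2 at -2.16, Rbm25 at -2.15 and Matr3 at -2.03. Clk1 had -1.95 and Clk4 had -1.62, so the CLK kinases, which phosphorylate SR proteins, lay on both sides. The median log2 ratio was -1.30 over the hnRNP genes, -1.55 over the SR and TRA2 genes, -1.25 over the other splicing factors, -0.33 over the kinases, -1.82 over the paralogs and 0.70 over the neural or epithelial factors, beside 0.21 over all genes tested. Without the GC trend, 1 gene in all these lists was called higher, Rbm38 with a log2 ratio of 1.44, and 11 were called lower.

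For each regulator, the listed splicing gene nearest in log2(nuclear TPM + 1) over both libraries was named among 76 candidates, by Euclidean distance over 2 values. Srsf1 was nearest to Clk1, an SR protein kinase, at a distance of 0.25, and Rbfox1 to Tia1 at 0.25. Rbm24 was nearest to Srsf6 at 0.27, Celf1 to Hnrnph3 at 0.29 and Ptbp1 to Srsf9 at 0.34. Mbnl1 and Mbnl2 shared Rbm25 as their nearest gene, at 0.29 and 0.41, and Rbm20 was nearest to Raly at 0.41. The largest distances were those of Celf2 to Hnrnpll, 0.47, and Rbfox2 to Rbpms2, 0.53. A distance over 2 libraries of 1 heart describes likeness of level only.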

How the data were processed

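The authors deposited 1 gene table and 1 transcript table per library for assembly mm10 and annotation M4, as the deposited descriptions state. For aligner, abundance program and strand, the setting is not given in the sources used. Overlapping antisense reads may thus be included. The deposited expected counts need not be whole and were rounded for tests. The deposited TPM and FPKM are corrected for length and scaled per library, and the deposited percent is the share of a gene's abundance held by each transcript. Posterior means in the deposited tables served as alternatives.

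TPM was rescaled without 37 mitochondrial genes and 11 nuclear copies (blastn 2.17.0, at least 95% identity over 90% of the length). Symbols, coordinates, transcript classes and exons come from GENCODE release M21 of the same assembly. Genes with at least 20 counts over both libraries were tested with edgeR 4.0.16 (R 4.3.3), two-sided exact binomial test with TMM scaling, replicate 2 over replicate 1 with 0.5 counts added, with calls at 2-fold and an adjusted p (Benjamini-Hochberg) under 0.05. Above 10000 counts the exact binomial p was computed with doubled tails, because edgeR's function there ignores the scaling. These tests compare the 2 libraries, not conditions. Intervals and the limit of 3 counts behind a count of 0 cover counting error only. GC content is the mean over a gene's transcripts weighted by TPM, and its trend was the median ratio in 50 bins. It uses release M21 sequences, also for transcripts whose deposited length differs. Calls were also tested on simulated data. Python 3.11.15, numpy 2.4.6, pandas 2.3.3 and scipy 1.17.1 were used.

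The members and lists were chosen with earlier results of these data known. Named are all 10 members, of other lists genes of highest mean TPM, genes without counts and called genes, for each member its 2 leading transcripts (others where an exon or class depends on them), and cassette exons of at most 300 nt with enough counts. Of the genes this rule names, 1 is not reported here. Alternatives covered scaling, filter, pseudocount, estimate and GC trend, and each library was left out in turn.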

Additional observations from a re-analysis of the deposited data

How the results depend on the processing

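No paired analysis was possible because the series holds 1 group with 1 animal. With the GC trend removed, 2792 genes were called in place of 8642, of which 1 was a member in place of 7 and 12 were other listed splicing genes in place of 47. On that scale the log2 ratio became -0.56 for Rbm20, -0.56 for Rbfox2, -0.36 for Ptbp1 and 0.028 for Celf1, each with its sign turned. For Rbm20 and Rbfox2 the GC content rests in part on release M21 sequences of other lengths than those deposited. With DESeq2 1.42.0 size factors Rbfox2 had -0.073, Rbm20 fell under the 2-fold limit with 0.96 and Rbm24 passed it with -1.08, and the number of members called remained 7, as it did without a filter, with posterior mean counts and with totals without mitochondrial genes. The median of all genes was 0.21 with TMM, 0.11 with DESeq2 size factors and 0.35 with those totals. Leaving out a library moved the median log2 level of the 10 members, 6.59, to between 6.07 and 6.67, and left 8 cassette exons between 10% and 90% from either library alone, against 3 in both. The 7 members with the same leading transcript were 7 with posterior shares and with at least 50 counts. The posterior estimate of the decay and intron-retaining shares was added after seeing the data. With only 1 heart, no value here has a biological replicate.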

Other observations

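Exons of genes that these regulators are known to act on were followed in the same way, and they were chosen after their values were seen. In Camk2d, whose exon choice in mouse heart depends on SRSF1, the 99-nt exon was included at 21.6% in replicate 2 and 22.0% in replicate 1, and the 60-nt exon at 85.0% in replicate 2 and 80.7% in replicate 1. The 42-nt exon of Camk2d was included at 55.2% in replicate 2 and 74.7% in replicate 1. These Camk2d values leave out transcripts whose deposited length differs from release M21, the leading Camk2d-202 among them. That transcript held 44.8% of the gene's abundance in replicate 2 and 72.7% in replicate 1. The 99-nt value rests on 498 of 2371 counts in replicate 2 and 285 of 2492 in replicate 1. The only transcript there that holds the exon, Camk2d-213, is annotated as a decay target. In Tnnt2, cardiac troponin T, the 12-nt exon was included at 18.6% in replicate 2 from 92883 counts and 17.0% in replicate 1 from 2388 counts.

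Other exons moved between the libraries. The 30-nt exon of Tnnt2 was included at 9.39% in replicate 2 from 92872 counts and 17.8% in replicate 1 from 2388 counts. In Mef2a, a muscle transcription factor, the 24-nt exon was included at 84.4% in replicate 2 and 95.9% in replicate 1. In Cacna1c, the pore of the cardiac calcium channel, an 84-nt exon was included at 32.7% in replicate 2 and 6.22% in replicate 1, while another of the same length was included at 68.8% in replicate 2 and 93.8% in replicate 1. Of 12 such genes with enough counts, 10 shared their leading transcript between the libraries, and Ldb3 and Tnnt2 did not. By posterior shares the number was 9, because Ryr2 then also changed its leading transcript.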
